A study of Mus musculus with 6 samples.

Results

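The collagen chain genes were taken as every row of the liver count table whose symbol is Col, a number, the letter a and a number, such as Col1a1, and 44 of the 56674 rows met this rule. They comprise 11 fibrillar chains, 8 chains of basement membranes and 25 other chains. Liver RNA of male C57BL/6 mice was sequenced after rearing for 71 weeks, in 3 libraries of mice given chow with polypropylene black microplastic (PB-MP) and 3 libraries of mice given normal chow (control). Strain, sex, age and tissue are shared by both groups, and diet is the difference that the labels name. The amount of PB-MP in the chow is not given in the sources used here, nor whether each library is a separate animal, so a p-value here reflects library-to-library spread, which may be technical. The study asked how long exposure to PB-MP bears on gene expression in the liver.

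Collagens are extracellular proteins whose chains wind around each other into trimers, some of identical and some of different chains. Fibrillar collagens (types I, III and V in the liver) form the cords of the portal tracts and of scars, the type IV network with collagens XV and XVIII lies in basement membranes and the perisinusoidal space, and the other classes link fibrils, form beaded filaments or span membranes. In the liver most fibrillar collagen is made by stellate cells and portal fibroblasts, endothelium contributes type IV chains, and hepatocytes are a known source of Col18a1, whose product carries the endostatin domain.

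The libraries held 68357478 to 112566641 reads, so that 3 reads correspond to 0.0285 to 0.0495 CPM (read counts scaled to library size, here with edgeR's TMM correction for composition). Hepatocyte markers, led by Alb, summed to 62439 to 72313 CPM in PB-MP livers and 58283 to 70117 CPM in control livers, as a liver sample should. PB-MP replicate 3 and control replicate 2 stood somewhat apart, with mean correlations to their own group of 0.947 and 0.950. Some collagen estimates are also given without either or both of them. Those of the type VI and FACIT chains are given with all 6 libraries only. Mitochondrial rows took 11.3%, 10.6% and 9.24% of reads in PB-MP libraries, against 14.9%, 16.4% and 16.0% in control libraries, without overlap. The ribosomal RNA row Rn18s-rs5 took 0.707% to 9.42% in PB-MP libraries and 1.15% to 11.2% in control libraries. With these rows left out of the scaling, the log2 fold changes of Col1a1 and Col1a2 were -1.02 each and that of Col3a1 was -0.80. The TMM factors did not overlap between diets, at 1.04 to 1.12 in PB-MP libraries and 0.887 to 0.961 in control libraries. With scaling by library size only, the estimates were nearer 0, at -0.83 for Col1a1, -0.84 for Col1a2 and -0.61 for Col3a1. The PB-MP libraries had reads in 24865 to 25133 rows, against 23095 to 23872 rows in control libraries.

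Of the 44 genes, 31 had enough reads to be tested, which required about 10 reads at the median library size in at least 3 libraries. They were 9 fibrillar, 8 basement membrane and 14 other chains. A further 8 had reads but fell under that level: the cartilage chains Col2a1, Col11a1 and Col9a3, the type VI chain Col6a5, Col22a1, Col10a1, Col17a1 and Col28a1. Col6a4, Col9a1, Col9a2, Col19a1 and Col26a1 had 0 reads in all 6 libraries. At least 1 read was found for 35, 34 and 35 of the genes in PB-MP replicates 1 to 3, against 28, 33 and 31 in control replicates 1 to 3. Among the 31 tested genes, 22 reached the filter's level in all 6 libraries. Col5a3, Col11a2, Col24a1, Col20a1, Col8a1, Col25a1 and Col7a1 reached it in all PB-MP libraries but in fewer control libraries, and Col25a1 in 0 of 3 control libraries. These 7 genes entered the test through their PB-MP libraries, so their higher estimates are descriptions. Col4a6 and Col8a2 reached it in 2 PB-MP libraries and 1 control library.

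**Figure D1:**
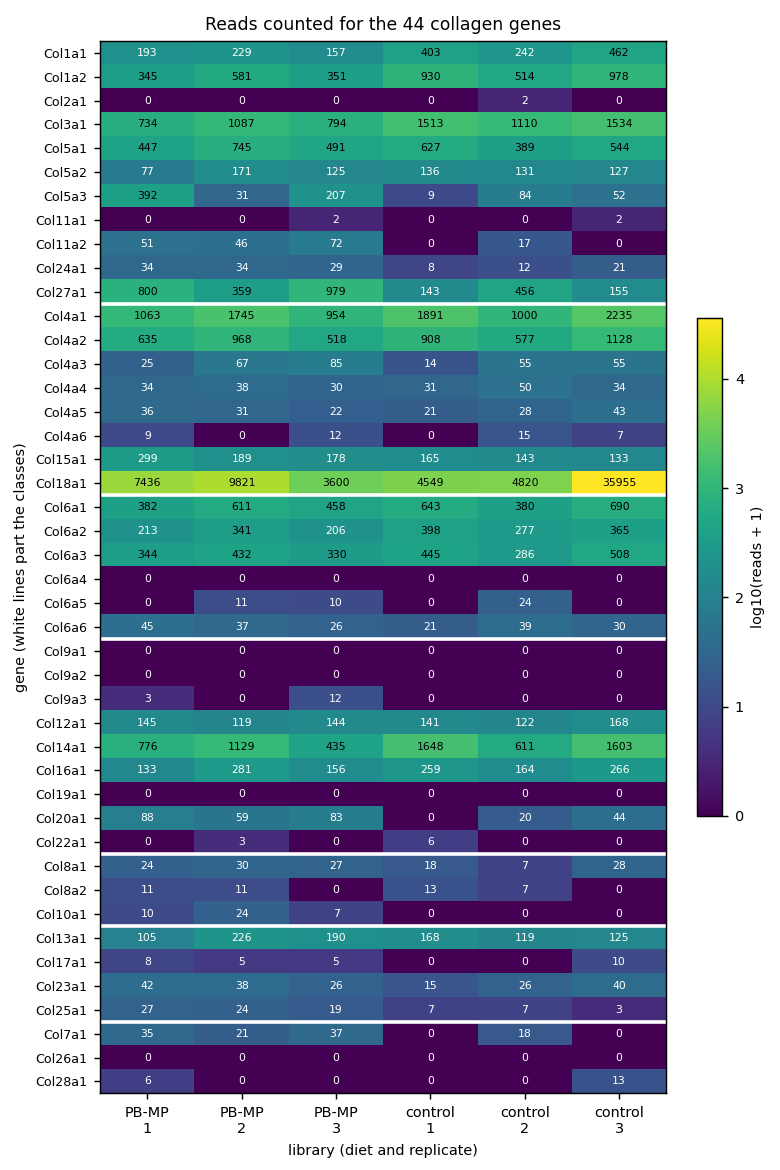
Reads counted for each of the 44 collagen genes (rows) in each library (columns, PB-MP left of control), coloured by log10(reads + 1), with the reads printed in each cell and white lines between classes and subclasses. Col18a1 has the most reads of the 44 genes in every library, with 35955 in control replicate 3.

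Promoter windows were looked up for the chains on which the results turn, because Col1a2 and Col3a1 encode partners in the same fibrils and stood lower together, and because Col4a1 and Col4a2 lie head to head. The RefSeq table of GRCm38.p6 matched 35 of the 44 genes, 26 of them tested, with 38 windows of 250 bases before to 50 after a gene's start. Col1a1, which stood lower with Col1a2 and Col3a1, was not matched, so its window is not shown. In the windows of Col1a2 (chr6:4505368-4505667, plus strand) and Col3a1 (chr1:45311288-45311587, plus strand), capitals mark matches on either strand to the CCAAT box (letters CCAAT), the GC box (letters GGGCGG), the TATA box (letters TATAAA) and the SMAD core motif (letters CAGAC).
Col1a2: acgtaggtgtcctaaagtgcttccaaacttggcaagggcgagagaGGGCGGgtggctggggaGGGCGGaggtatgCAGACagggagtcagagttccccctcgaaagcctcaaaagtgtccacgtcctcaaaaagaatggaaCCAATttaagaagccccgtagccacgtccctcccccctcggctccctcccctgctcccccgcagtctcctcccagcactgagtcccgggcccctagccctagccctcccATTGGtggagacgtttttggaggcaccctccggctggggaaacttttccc
Col3a1: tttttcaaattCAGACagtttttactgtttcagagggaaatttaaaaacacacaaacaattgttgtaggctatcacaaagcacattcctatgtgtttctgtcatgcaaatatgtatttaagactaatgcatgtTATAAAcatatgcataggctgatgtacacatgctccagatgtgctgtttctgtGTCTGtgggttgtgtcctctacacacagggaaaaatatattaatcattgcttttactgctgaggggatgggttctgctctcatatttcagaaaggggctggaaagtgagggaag
The Col1a2 window held CCAAT matches at -109 and 0, GGGCGG at -205 and -188 and CAGAC at -175, counting the start as 0. The Col3a1 window held TATAAA at -117 and CAGAC at -239 and -64, and neither of the other motifs. GC content was 61% in the Col1a2 window and 37.7% in the Col3a1 window.

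Col4a1 (chr8:11312777-11313076, minus strand) and Col4a2 (chr8:11312555-11312854, plus strand) encode the chains of the common type IV network and are read away from each other. Their windows shared 78 bases, which the capitals mark, each window being written 5′ to 3′ on its own gene's strand.
Col4a1: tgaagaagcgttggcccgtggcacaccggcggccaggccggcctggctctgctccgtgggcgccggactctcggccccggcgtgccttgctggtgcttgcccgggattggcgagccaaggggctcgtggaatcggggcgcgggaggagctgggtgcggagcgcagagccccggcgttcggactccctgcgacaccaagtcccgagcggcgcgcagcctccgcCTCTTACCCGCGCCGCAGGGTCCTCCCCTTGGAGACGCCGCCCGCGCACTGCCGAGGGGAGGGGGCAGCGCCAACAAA
Col4a2: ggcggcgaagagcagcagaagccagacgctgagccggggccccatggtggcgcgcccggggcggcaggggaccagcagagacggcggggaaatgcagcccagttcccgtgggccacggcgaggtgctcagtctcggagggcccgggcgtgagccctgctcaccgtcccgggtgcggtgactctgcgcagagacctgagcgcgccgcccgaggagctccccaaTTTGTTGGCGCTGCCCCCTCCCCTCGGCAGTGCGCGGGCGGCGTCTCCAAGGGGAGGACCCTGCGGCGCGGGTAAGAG
Over the 38 collagen windows, CCAAT on either strand was present in 34.2%, against 37.4% of all 32851 windows. GGGCGG was present in 60.5% against 35.7%, TATAAA in 13.2% against 13.6%, TGANTCA (the AP-1 motif) in 2.63% against 7.81% and CAGAC in 52.6% against 49.6%. A match is a description of these letters and not a binding site.

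The major fibril-forming chains stood lower in PB-MP livers, by a difference that did not pass correction over all genes in edgeR. The abundant type IV chains Col4a1 and Col4a2 and type VI chains Col6a1, Col6a2 and Col6a3 had estimates below 0 with overlapping groups. Under edgeR's quasi-likelihood test, 0 of 31 collagen genes had an adjusted p below 0.05 (background 0.00% of 17871 tested genes). At an unadjusted p below 0.05, Col1a1, Col1a2 and Col3a1 were lower, which is 3 of 31 (background 4.74%). On the higher side Col24a1 and Col25a1 had such a p (background 7.35%). On the lower side the 6 libraries separated by group without overlap for the same 3 of 31 genes. That share is near the background of 8.49%, so nothing is read from this count. On the higher side the libraries separated for Col11a2, Col24a1, Col20a1, Col8a1 and Col25a1 (background 11.4%). All of these genes with higher values are among the 7 that entered through their PB-MP libraries, so the counts on the higher side are descriptions and are not read against the background. DESeq2 gave an adjusted p to 34 collagen genes and called Col1a1 lower (adjusted p = 0.0452, background 0.719%) and Col10a1 higher (adjusted p = 0.0263, background 1.72%). Col10a1 had reads in PB-MP libraries only, 41 in total, so that call too is a description. limma-voom called 0 of 31 at its adjusted p (background 0.00%), and had 9 at an unadjusted p below 0.05 (background 13.7%), of which 6 were higher and among the same 7 genes or Col27a1.

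The median log2 fold change of the 31 genes was -0.15, with 18 estimates below 0 and 13 above, against a median of 0.01 over all tested genes. It was -0.05 for the 9 fibrillar chains, -0.37 for the 8 basement membrane chains and -0.01 for the 14 other chains. The fibrillar chains Col5a3, Col11a2 and Col24a1 and the other chains Col20a1, Col8a1, Col25a1 and Col7a1 entered through their PB-MP libraries. No basement membrane chain did so, and the classes are therefore not compared by these medians. The 18 better expressed genes, averaging 1 CPM or more, had a median of -0.38 with 14 below 0 (all 12546 such genes: median -0.03, 52.9% below 0). The 13 genes under 1 CPM had a median of 0.30 with 9 above 0 (all 5325 such genes: median 0.20, 41.1% below 0). Of those 9 genes, 6 entered through their PB-MP libraries, and the other 7 low genes had 3 estimates above 0 and 4 below, so nothing is read from the split by level. The 95% interval lay between log2 fold changes of -1 and 1 for 5 of 31 collagen genes, against 45.7% of all tested genes, so for most members these libraries leave a change of that size possible.

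**Figure D2:**
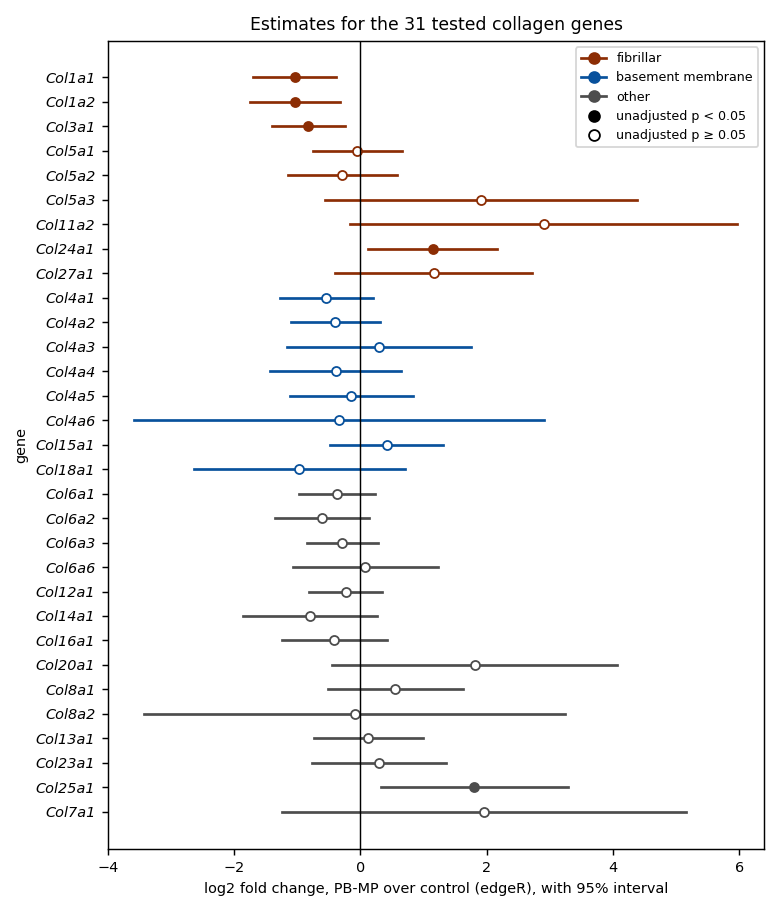
edgeR log2 fold change of PB-MP over control with its 95% interval for the 31 tested collagen genes, grouped by class. The intervals of Col1a1, Col1a2 and Col3a1 lie below 0 and those of Col24a1 and Col25a1 above 0 (genes that entered through their PB-MP libraries), while the other 26 include 0.

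Among fibrillar chains, Col1a1 and Col1a2 encode the chains of type I collagen, the bulk of liver fibrils. Col1a1 had 2.45, 2.71 and 1.61 CPM in PB-MP replicates 1 to 3, against 5.53, 3.99 and 4.39 CPM in control replicates 1 to 3. Every PB-MP library lay below every control library, with means of 2.25 ± 0.573 CPM in PB-MP livers and 4.64 ± 0.797 CPM in control livers (SD, n = 3 each). The edgeR log2 fold change was -1.04 ± 0.28 (SE, 95% interval -1.70 to -0.38, adjusted p = 0.255). Col1a2 had 4.37, 6.87 and 3.60 CPM in PB-MP libraries, against 12.8, 8.48 and 9.30 CPM in control libraries. The groups again did not overlap, and the edgeR log2 fold change was -1.04 ± 0.30 (SE, adjusted p = 0.287).

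Col3a1, the chain of the homotrimeric type III collagen of reticular fibres, had the most reads of the fibrillar genes when summed over the 6 libraries. It had 9.31, 12.8 and 8.14 CPM in PB-MP libraries, against 20.8, 18.3 and 14.6 CPM in control libraries. No PB-MP library reached the lowest control library, and the edgeR log2 fold change was -0.82 ± 0.24 (SE, adjusted p = 0.294). Exons of Gm47302 overlap those of Col3a1 on the same strand in the GRCm38 annotation. The deposited counts have no row for Gm47302, so no reads there were counted under that name. PB-MP replicate 3 was the lowest and control replicate 1 the highest for all of Col1a1, Col1a2 and Col3a1. Without PB-MP replicate 3 and control replicate 2 together, the estimates of Col1a1 and Col1a2 kept an unadjusted p below 0.05 and that of Col3a1 did not.

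The type V chains, which set the diameter of type I fibrils, were not separated by diet. Col5a1 had 5.67, 8.81 and 5.04 CPM in PB-MP libraries, against 8.60, 6.42 and 5.17 CPM in control libraries, with an edgeR log2 fold change of -0.05 ± 0.30 (SE). Col5a2 had 0.976, 2.02 and 1.28 CPM in PB-MP libraries, against 1.87, 2.16 and 1.21 CPM in control libraries, with an edgeR log2 fold change of -0.29 ± 0.37 (SE). Both overlapped between the groups. Col5a3, the other type V chain gene, had 4.97, 0.366 and 2.12 CPM in PB-MP libraries, against 0.123, 1.39 and 0.495 CPM in control libraries. These also overlapped, and libraries of the same diet differed widely (edgeR log2 fold change 1.91 ± 1.05, SE).

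The remaining fibrillar chains are minor ones in liver. Col27a1, a fibrillar chain best known from cartilage, had 10.1, 4.24 and 10.04 CPM in PB-MP libraries, against 1.96, 7.52 and 1.47 CPM in control libraries. Control replicate 2 lay above PB-MP replicate 2, so the groups overlapped (edgeR log2 fold change 1.16 ± 0.66, SE). Without control replicate 2 the estimate was 2.22 with an unadjusted p below 0.05, and without control replicate 3 it was 0.79. Col24a1, a fibrillar chain that accompanies type I collagen in bone, had 0.431, 0.402 and 0.297 CPM in PB-MP libraries, against 0.110, 0.198 and 0.200 CPM in control libraries. These are 34, 34 and 29 reads in PB-MP libraries, against 8, 12 and 21 reads in control libraries. The groups did not overlap (edgeR log2 fold change 1.14 ± 0.43, SE, adjusted p = 0.369). Col11a2 had 51, 46 and 72 reads in PB-MP libraries, against 0, 17 and 0 reads in control libraries.

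**Figure D3:**
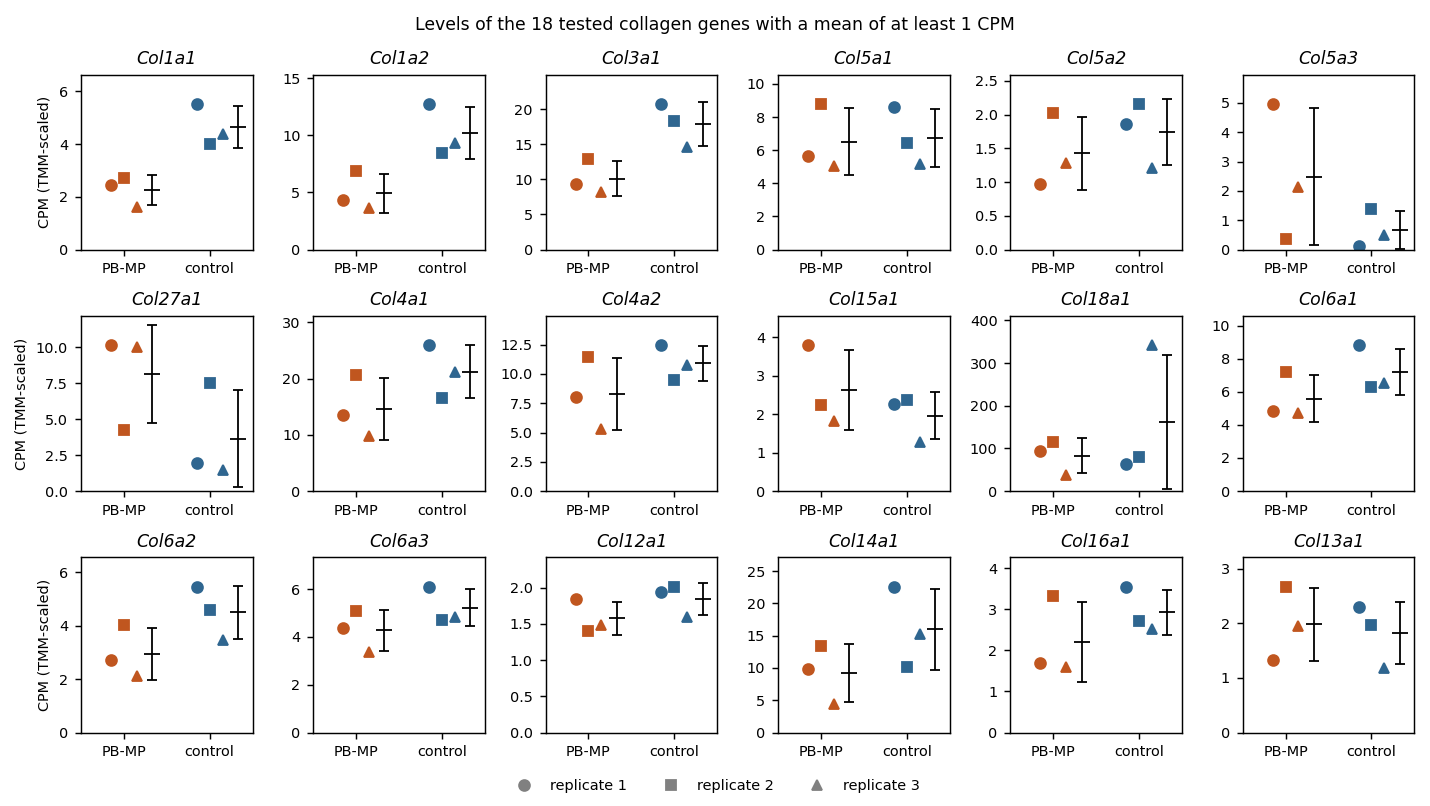
CPM in each library for the 18 tested collagen genes averaging 1 CPM or more, PB-MP left of control, each panel on its own axis from 0, with points for libraries, a marker shape for each replicate number and bars for the mean ± SD. Col1a1, Col1a2 and Col3a1 are the panels in which the groups do not overlap, and the Col18a1 panel shows 1 control library at 342 CPM.

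In basement membranes, the abundant type IV chains Col4a1 and Col4a2 had estimates below 0 with overlapping groups. Col4a1 had 13.5, 20.6 and 9.79 CPM in PB-MP libraries, against 25.9, 16.5 and 21.3 CPM in control libraries (edgeR log2 fold change -0.54 ± 0.31, SE, adjusted p = 0.527). Col4a2 had 8.05, 11.4 and 5.31 CPM in PB-MP libraries, against 12.5, 9.52 and 10.7 CPM in control libraries (-0.40 ± 0.30, SE, adjusted p = 0.628 in edgeR). PB-MP replicate 2 lay among the control libraries for both genes. Without that library both had an unadjusted p below 0.05, with log2 fold changes of -0.87 for Col4a1 and -0.71 for Col4a2. Without PB-MP replicate 3 they were -0.32 for Col4a1 and -0.16 for Col4a2. Exons of these genes overlap on opposite strands, so a few of their reads can be exchanged if counting ignored strand. The chains of the specialised type IV networks, Col4a3, Col4a4, Col4a5 and Col4a6, stayed under 1 CPM in all libraries, and their log2 estimates ran from -0.39 to 0.30.

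Col18a1 was the most abundant collagen mRNA in every library, and a single control library decided its group difference. It had 94.3, 116 and 36.9 CPM in PB-MP libraries, against 62.4, 79.5 and 342 CPM in control libraries. Control replicate 3 alone held 35955 Col18a1 reads, and the other 5 libraries were interleaved. The edgeR log2 fold change was -0.97 ± 0.71 (SE, adjusted p = 0.619) with all libraries and 0.21 without control replicate 3. Col18a1 made up 49.6%, 50.3% and 33.4% of collagen reads in PB-MP libraries, against 30.1%, 41.0% and 75.9% in control libraries. Col15a1, the related multiplexin of vessel walls, had 3.79, 2.23 and 1.83 CPM in PB-MP libraries, against 2.26, 2.36 and 1.26 CPM in control libraries, which overlapped.

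With Col18a1 set aside, the collagen genes summed to 96.0, 115 and 73.6 CPM in PB-MP libraries, against 145, 114 and 108 CPM in control libraries. PB-MP replicate 2 lay within the control range, and the other PB-MP libraries lay below it.

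Type VI collagen forms beaded filaments around cells from the products of Col6a1, Col6a2 and Col6a3. Col6a1 had 4.84, 7.22 and 4.70 CPM in PB-MP libraries, against 8.82, 6.27 and 6.56 CPM in control libraries. Col6a2 had 2.70, 4.03 and 2.11 CPM in PB-MP libraries, against 5.46, 4.57 and 3.47 CPM in control libraries. Col6a3 had 4.36, 5.11 and 3.39 CPM in PB-MP libraries, against 6.11, 4.72 and 4.83 CPM in control libraries. For each of these chains the highest PB-MP library was replicate 2 and lay inside the control range. The edgeR log2 fold changes were -0.37 ± 0.26 for Col6a1, -0.61 ± 0.32 for Col6a2 and -0.28 ± 0.24 for Col6a3 (SE). Col6a6, a later-described chain, stayed under 1 CPM.

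The FACIT collagens sit on the surface of fibrils. Col14a1, which binds type I fibrils through decorin, was the most abundant of them, at 9.84, 13.3 and 4.46 CPM in PB-MP libraries, against 22.6, 10.1 and 15.2 CPM in control libraries. The groups overlapped and the edgeR log2 fold change was -0.79 ± 0.45 (SE, adjusted p = 0.517). Col12a1 had 1.84, 1.41 and 1.48 CPM in PB-MP libraries, against 1.93, 2.01 and 1.60 CPM in control libraries, with the smallest spread between libraries of the 18 genes. Col16a1 had 1.69, 3.32 and 1.60 CPM in PB-MP libraries, against 3.55, 2.71 and 2.53 CPM in control libraries. Both overlapped. Col20a1 had 88, 59 and 83 reads in PB-MP libraries, against 0, 20 and 44 reads in control libraries.

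Among transmembrane collagens, Col13a1, a component of adhesion sites, had 1.33, 2.67 and 1.95 CPM in PB-MP libraries, against 2.31, 1.96 and 1.19 CPM in control libraries (edgeR log2 fold change 0.13 ± 0.37, SE). Col25a1, known from neurons and neuromuscular junctions, had 27, 24 and 19 reads in PB-MP libraries, against 7, 7 and 3 reads in control libraries. The groups did not overlap (edgeR log2 fold change 1.80 ± 0.63, SE, adjusted p = 0.342). Col23a1 had 0.267 to 0.532 CPM in PB-MP libraries and 0.206 to 0.429 CPM in control libraries.

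Col10a1, the short-chain collagen of hypertrophic cartilage, had 10, 24 and 7 reads in PB-MP libraries, against 0, 0 and 0 reads in control libraries. Its mean CPM in PB-MP livers was 4.05 times a floor of 3 reads in each control library. This ratio leaves out the spread among PB-MP libraries, at 0.127, 0.284 and 0.072 CPM, so it is not a lower bound. It was under the edgeR filter, and without a filter edgeR gave it an adjusted p of 0.289. Its exons overlap those of Nt5dc1 on the other strand, and Nt5dc1 had 14.7, 12.9 and 12.9 CPM in PB-MP libraries, against 11.8, 15.4 and 16.3 CPM in control libraries. Without the strand setting, reads from the overlapping stretch cannot be assigned to one gene or the other. Col8a1, a vessel-wall chain of the same class, had 24, 30 and 27 reads in PB-MP libraries, against 18, 7 and 28 reads in control libraries. As scaled levels these did not overlap, by a small margin, with 0.277 CPM in the lowest PB-MP library and 0.266 CPM in the highest control library. Col7a1, the anchoring fibril chain, had 35, 21 and 37 reads in PB-MP libraries, against 0, 18 and 0 reads in control libraries.

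Levels were compared between genes as CPM per kilobase of exon. Col18a1 was first, with means of 11.7 CPM per kilobase in PB-MP livers and 23.0 in control livers. Col4a1 followed at 1.96 in PB-MP and 2.84 in control livers, then Col14a1 at 1.31 in PB-MP and 2.28 in control livers. Col3a1 had 1.03 CPM per kilobase in PB-MP and 1.82 in control livers, close to Col6a1 at 1.28 and 1.65 and Col4a2 at 1.25 and 1.65 in the same groups. In both groups, neighbours in this order from Col4a1 to Col4a2 differed by less than the larger of their SDs. Col5a1 had 0.766 CPM per kilobase in PB-MP and 0.793 in control livers. Col1a2 had 0.398 in PB-MP and 0.819 in control livers, and Col1a1 had 0.344 in PB-MP and 0.707 in control livers. In the order of levels within PB-MP livers Col1a1 was number 15 of the genes, and within control livers it was number 9. Per kilobase of coding sequence the order changed, with Col3a1 as number 3, Col14a1 as number 4 and Col1a2 as number 5 in control livers. The annotated Col1a2 exons span 12.4 kb, of which 4.12 kb are coding.

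Chains that share a trimer or fibril were compared as ratios of reads within a library, which need no scaling between libraries. The Col1a1 to Col1a2 ratio was 0.559, 0.394 and 0.447 in PB-MP libraries, against 0.433, 0.471 and 0.472 in control libraries. It differed by 0.01 on the log2 scale (two-sided exact permutation test over 10 splits, p = 1.0), and PB-MP replicates 1 and 2 held both the highest and the lowest ratio. Col3a1 to Col1a1 was 3.80, 4.75 and 5.06 in PB-MP libraries, against 3.75, 4.59 and 3.32 in control libraries (difference 0.23, exact permutation p = 0.2, adjusted over 6 ratios 0.6).

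Col4a1 to Col4a2 was 1.67, 1.80 and 1.84 in PB-MP libraries, against 2.08, 1.73 and 1.98 in control libraries (difference -0.12, exact permutation p = 0.3, adjusted 0.6). Col5a1 to Col5a2 differed by 0.25 (exact permutation p = 0.5, adjusted 0.75), Col6a1 to Col6a2 by 0.26 (p = 0.3, adjusted 0.6) and Col6a3 to Col6a1 by 0.09 (p = 0.8, adjusted 0.96). With 3 libraries against 3 the smallest p that this test allows is 0.1, so it could not pass 0.05 for any ratio.

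**Figure D4:**
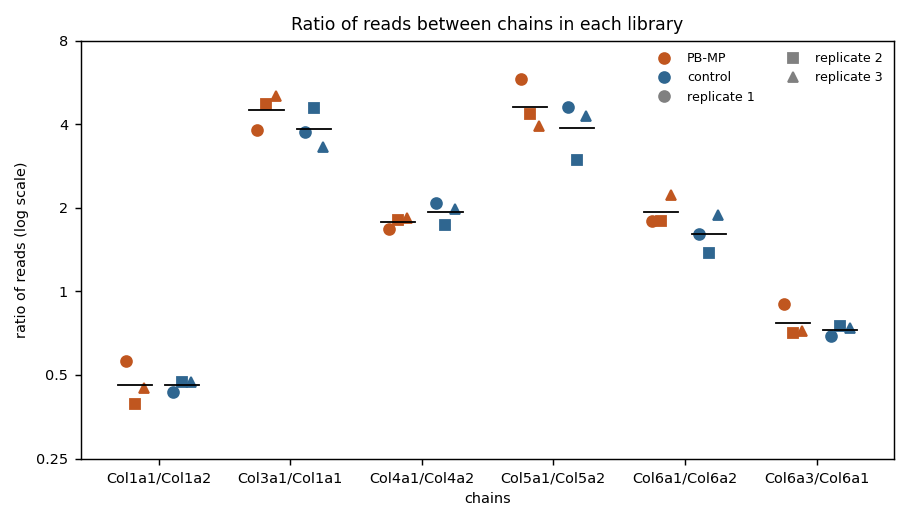
Ratio of reads between chains of a trimer or fibril in each library, on a log scale, for 6 chain pairs, PB-MP left of control, with a line at each group's geometric mean. The groups overlap for every pair, and Col1a1 to Col1a2 lies between 0.394 and 0.559 in all 6.

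The order of the libraries was shared by many collagen genes. Of the 18 genes with at least 1 CPM, 12 had their lowest value in PB-MP replicate 3 and 10 their highest in control replicate 1. The median coefficient of variation of these genes was 35.8% among PB-MP libraries and 22.3% among control libraries. Leaving out each library in turn kept Col1a1 between -1.19 and -0.85 and Col1a2 between -1.35 and -0.85 on the log2 scale, and Col3a1 between -1.04 and -0.69. Without control replicate 2, 10 of 32 tested collagen genes had an unadjusted p below 0.05, both directions pooled (background 17.8%). Of these, Col1a1, Col1a2 and Col3a1 were lower and the rest higher. Without PB-MP replicate 2 the count was 8 of 31 (background 10.5%), of which only Col5a3 was higher. Without PB-MP replicate 1 it was 3 of 32 (background 8.10%), all lower. Without PB-MP replicate 3 and control replicate 2 together it was 8 of 31 (background 23.8%), and the median of the tested genes was 0.22. Of those 8, Col1a1 and Col1a2 were lower and the rest higher. The higher genes in these counts, apart from Col27a1, entered through their PB-MP libraries or had reads there only. The pooled counts are therefore descriptions and are not read against the background.

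**Figure D5:**
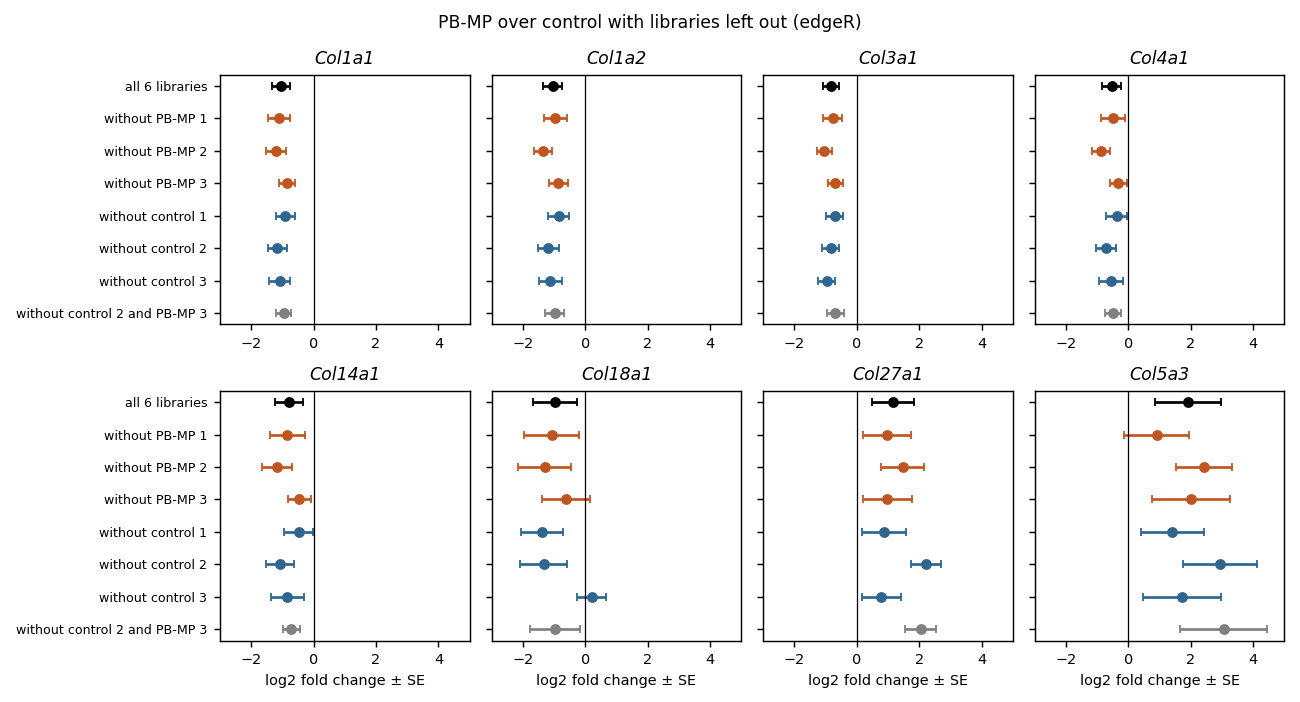
edgeR log2 fold change of PB-MP over control with its SE, for all 6 libraries and with libraries left out (rows), for 8 collagen genes in a panel each. Estimates for Col1a1, Col1a2 and Col3a1 stay below 0 in every row (Col3a1 between -1.04 and -0.69), and that of Col18a1 turns to 0.21 without control replicate 3.

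Genes that make, process, bind and break down collagen were described from 8 lists of 111 genes. Of these, 96 were tested, 0 passed edgeR's adjusted p (background 0.00%), 7 were lower (background 4.74%) and 3 higher (background 7.35%) at an unadjusted p below 0.05, and DESeq2 called 0. Estimates in these lists are edgeR log2 fold changes ± SE. Among 22 tested genes of chain modification and folding, 17 estimates were below 0 (median log2 fold change -0.20). Crtap, a subunit of the prolyl 3-hydroxylase complex, had 2.55, 3.18 and 2.69 CPM in PB-MP libraries, against 4.61, 3.96 and 4.23 CPM in control libraries, without overlap (-0.61 ± 0.21 in edgeR, SE). Serpinh1, the collagen chaperone HSP47, named after its values were seen, had a log2 estimate of -0.61 ± 0.24. Mia2, which helps load bulky cargo at the endoplasmic reticulum, had an estimate of 0.67 ± 0.25, and the prolyl isomerase Fkbp14 one of 0.65 ± 0.26.

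For propeptide removal, 5 genes were tested with a median of -0.14. Pcolce, which speeds removal of the C-propeptide, had 3.02, 3.92 and 3.95 CPM in PB-MP libraries, against 7.19, 5.12 and 5.33 CPM in control libraries, without overlap (-0.69 ± 0.24 in edgeR, SE). The N-propeptidase Adamts2 had an estimate of -0.69 ± 0.33, and Pcolce2 one of 0.18 ± 0.32. The 5 tested cross-linking genes had a median of -0.32, with Loxl1 at -0.62 ± 0.29, Loxl2 at -0.53 ± 0.32 and the transglutaminase Tgm2 at -0.32 ± 0.18.

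Of 13 tested fibril-binding proteoglycans and glycoproteins, 10 were below 0 (median -0.49). Sparc, a collagen-binding matricellular protein, had 19.7, 32.8 and 24.4 CPM in PB-MP libraries, against 45.0, 34.2 and 39.6 CPM in control libraries (-0.63 ± 0.23 in edgeR, SE). Its groups did not overlap, nor did those of the small proteoglycan Fmod (-0.78 ± 0.29). Bgn, another small proteoglycan, had an estimate of -0.72 ± 0.28 with overlap. The 16 basement membrane glycoproteins had a median of 0.05, 8 on each side of 0, and the laminin chains Lama5, Lamc3 and Lama4 had estimates of 0.56 ± 0.26, 0.47 ± 0.26 and 0.31 ± 0.24.

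Of 8 tested collagen receptors 5 were above 0 (median 0.10), with the integrin subunits Itgb1 at -0.37 ± 0.20 and Itga1 at 0.15 ± 0.22 and the inhibitory receptor Lair1 at 0.58 ± 0.32. Itga10, named after its values were seen, had an unadjusted p below 0.05 on the higher side (1.30 ± 0.48). Among 8 tested proteases and inhibitors, 7 were below 0 (median -0.36). Timp2, an inhibitor of matrix metalloproteinases, had 7.19, 12.7 and 7.94 CPM in PB-MP libraries, against 15.8, 16.2 and 14.4 CPM in control libraries (-0.74 ± 0.25 in edgeR, SE). The gelatinase Mmp2 had an estimate of -0.51 ± 0.25 and the protease inhibitor Reck one of -0.50 ± 0.29. Of 19 regulators of collagen transcription, 13 were below 0 (median -0.20). The TGF-beta receptor Tgfbr2 had an estimate of -0.46 ± 0.20, the shared SMAD partner Smad4 one of -0.54 ± 0.24 and the RUNX partner Cbfb one of -0.51 ± 0.22, with 0 of the 19 at an unadjusted p below 0.05.

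Summed levels of markers of collagen-making cells are set beside the fibrillar chains here. In bulk liver, fewer cells of a type and less RNA per cell cannot be told apart. The 12 stellate cell markers, all tested and led by Ecm1, Reln and Colec11, had 10 estimates below 0 (median log2 fold change -0.31). They summed to 132, 283 and 194 CPM in PB-MP libraries, against 305, 257 and 264 CPM in control libraries, and PB-MP replicate 2 lay within the control range. Col1a1, Col1a2 and Col3a1 together were 12.2%, 7.92% and 6.88% of that sum in PB-MP libraries, against 12.8%, 12.0% and 10.7% in control libraries.

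Portal fibroblast markers, led by Entpd2, Dpt and Eln, summed to 9.50, 9.81 and 9.92 CPM in PB-MP libraries, against 13.7, 18.1 and 14.2 CPM in control libraries. Their sums did not overlap between groups, and 6 of 7 tested markers were below 0 (median -0.70), while Gli1, Clec3b and Pi16 were near 0 and untested. Myofibroblast and smooth muscle markers, led by Tagln, Myh11 and Acta2, had 5 of 5 tested below 0 (median -0.51) and summed to 7.21, 8.17 and 5.68 CPM in PB-MP libraries, against 7.85, 10.8 and 10.2 CPM in control libraries. Their part in the collagen levels was not tested.

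Markers of other cell types the tissue could hold are given by their sums. The 9 sinusoidal endothelial markers had a median of -0.05 and summed to 92.5 to 151 CPM in PB-MP libraries and 108 to 139 CPM in control libraries. Cholangiocyte markers had a median of -0.07 over 6 tested genes and summed to 18.3 to 28.5 CPM in PB-MP and 12.1 to 27.0 CPM in control libraries. Mesothelial markers had a median of -0.34 over 6 genes and summed to 1.56 to 3.24 CPM in PB-MP and 1.56 to 8.28 CPM in control libraries. Of the adipocyte markers 3 were tested, with sums of 4.43 to 8.996 CPM in PB-MP and 6.60 to 17.1 CPM in control libraries and a median of -3.02. That median is the estimate of Retn, which averaged 0.029 CPM in PB-MP and 0.254 CPM in control livers. Fabp4, the most abundant of the list, had an estimate above 0 with overlapping groups (edgeR log2 fold change 0.26 ± 0.32, SE). Lep had 0 reads throughout, Adipoq and Plin1 were near 0, and DESeq2 called Cfd lower, at 0.723, 0.615 and 1.30 CPM in PB-MP libraries, against 8.71, 2.19 and 12.0 CPM in control libraries. The 6 Kupffer cell markers were all above 0 (median 0.76), with sums of 115, 102 and 226 CPM in PB-MP libraries, against 96.6, 80.3 and 103 CPM in control libraries. DESeq2 called Marco higher, at 4.46, 4.61 and 30.3 CPM in PB-MP libraries, against 3.38, 3.51 and 1.55 CPM in control libraries. Without PB-MP replicate 3 the edgeR log2 fold change of Marco was 0.69, against 2.23 with it. The median of the list was then 0.31, with 5 of the 6 markers above 0. The 7 hepatocyte markers had a median of -0.06.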

How the data were processed

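Poly(A)-selected liver RNA was made into libraries with a directional kit, per the labels' protocols. Per the submitters' processing notes, bcl2fastq and build GRCm39 were used, in roles that are not named. For the aligner, counter, annotation and strand setting, nothing is given in the sources used here. Raw counts by symbol, unscaled, were deposited by the authors in a table whose columns equal the single-library files. Diet in the labels set the groups.

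Counts were scaled by TMM and fitted with edgeR 4.0.16 (quasi-likelihood, R 4.3.3) over all genes that passed filterByExpr (minimum count 10, minimum total 15), with Benjamini-Hochberg adjustment. A threshold of 0.05 was used, and SE and 95% intervals come from that fit. Repeated names occur on 939 rows, none of them a collagen gene. Alternatives were RLE, library size only, scaling without rRNA and mitochondrial rows, other filters, DESeq2 1.42.0, limma 3.58.1 (voom, with and without quality weights), robust estimation, a replicate block and leaving out libraries. Statistical scripts were tested on simulated data. Exon and coding lengths and exon overlaps came from an annotation of build GRCm38, matched by symbol.

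The collagen genes, the 8 partner lists and the marker lists (stellate cell, portal fibroblast, myofibroblast and smooth muscle, sinusoidal endothelium, cholangiocyte, mesothelium, adipocyte, Kupffer cell, hepatocyte) were chosen with earlier results of these data known. Named were all tested collagens of at least 1 CPM or at an unadjusted p below 0.05, and those called by DESeq2. Also named were the up to 3 partner genes of lowest p per list of at least 1 CPM. Col11a2, Col20a1, Col8a1 and Col7a1 are given by library outside this rule, with their values known, and each has an estimate above 0. Other low members are given by range or count only. The floor of 3 reads covers counting error only.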

Additional observations from a re-analysis of the deposited data

How the results depend on the processing

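The count of 0 collagen genes past edgeR's adjusted p was the same in the 16 alternatives other than DESeq2, which called 2. The count at an unadjusted p below 0.05, 5 as reported, pools both directions and is given with the share of all genes in the same fit. Its higher genes, apart from Col27a1, entered through their PB-MP libraries or had reads there only. The pooled counts are therefore descriptions and are not read against that share. The count was 8 without a filter (9.04% of all genes) and 3 with a filter of 1 CPM in 3 libraries (11.2%). It was 8 in DESeq2 (8.39%), 9 in limma-voom (13.7%) and 9 with quality weights (23.4%). It was 8 without PB-MP replicate 3 and control replicate 2 together (23.8%), and 3 to 10 with each library left out (7.92% to 17.8%). The median of -0.15 was 0.22 without those libraries together and -0.22 to 0.07 with each left out. Estimates kept their sign under every alternative that tested the gene for 17 of 20 named collagen genes and 23 of 24 named partner genes. Col24a1 and Col25a1 had estimates in 16 of the 17 alternatives. Col5a1 turned to 0.16 with library size only, 0.013 with quality weights and 0.062 without the pair of libraries, and ran from -0.33 to 0.16 with each left out. Col13a1 ran from -0.15 to 0.35 and Col18a1 from -1.38 to 0.21 in that way. Pcolce2 was -0.069 with quality weights, -0.23 without the pair and -0.14 to 0.38 with each left out. The chain ratio differences ran from -0.13 to 0.13 for Col1a1 to Col1a2 and from -0.026 to 0.15 for Col6a3 to Col6a1. The cause of these turns was not tested. The edgeR, limma and DESeq2 adjusted p ranged from 0.0452 to 0.561 for Col1a1, 0.0661 to 0.592 for Col1a2 and 0.101 to 0.601 for Col3a1. With scaling by library size only, the median of all genes was 0.23 and that of the collagen genes 0.08. In that edgeR fit Crtap, Pcolce, Sparc, Fmod, Bgn and Timp2 had an unadjusted p of 0.0640 to 0.120. There Mia2 and Fkbp14 kept an unadjusted p below 0.05, and those of Lama5, Lamc3 and Lair1 fell below it.

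With the replicate number as a block, edgeR gave 5 collagen genes an unadjusted p below 0.05 (10.3% of all genes), 0 passed adjustment, and the median was -0.10. Among them Col11a2 took the place of Col24a1, whose edgeR adjusted p was 0.526 there. Of the named partner genes, Crtap, Pcolce, Sparc, Bgn, Mia2 and Fkbp14 had an unadjusted p of 0.0519 to 0.0883 with the block. Libraries with the same number correlated at -0.09, 0.09 and 0.08 in their deviations from the group means, which is under 0.1 in each pair. PB-MP replicate 1 correlated best with control replicate 2, and PB-MP replicates 2 and 3 each best with the control of their own number. The Rn18s-rs5 share of reads did follow the number, at 3.61% and 2.92%, 9.42% and 11.2%, and 0.707% and 1.15% for PB-MP and control replicates 1, 2 and 3. The labels give no pairing, so the numbers were not used to pair the samples. Members with few reads had wide intervals, such as 0.32 to 3.29 for Col25a1 and -1.24 to 5.16 for Col7a1 (edgeR, 95%).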
